A study of Homo sapiens with 4 samples.

Results

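The comparison is between a library of cells that received 100 mGy and one of cells that received 10 mGy, 2 of the 4 libraries of the series. BEAS-2B, an established cell line from human bronchial epithelium, was irradiated with gamma rays at 100 mGy per minute and sequenced 30 min later, and the other libraries were an unirradiated control and a dose of 1 Gy. All 4 groups were the same line with no other agent named in the labels, and each dose was 1 library, so dose and library cannot be told apart and no test between doses was possible. In this droplet assay a barcode marks the cell, and a unique molecular identifier (UMI) marks the molecule, so that UMIs count molecules. Barcodes with at least 5000 UMIs and at most 10% of UMIs in genes starting MT- were taken as cells, which kept 12515 of 21514 barcodes at 10 mGy and 14245 of 19950 at 100 mGy. UMIs were summed over the cells of a library and scaled to the same library total (CPM), and 8057 of 36601 genes had a mean of at least 10 CPM over both libraries. Ratios below are 100 mGy over 10 mGy, with exact 95% intervals that cover counting error only.

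Both doses count as low in radiation biology. Ionizing radiation breaks DNA and forms reactive oxygen species in water. The broken ends are sensed by the ATM and DNA-PK kinases, p53 then raises genes such as CDKN1A and MDM2 over hours, and the immediate early genes (FOS, JUN, EGR1, ATF3) can respond within minutes. When transcription alone falls, the level of a stable mRNA drops only as fast as its old molecules decay. Whether this bears on the ratios below was not tested.

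The cells differed in depth. The median cell held 19987 UMIs at 10 mGy and 15224 at 100 mGy, beside 21701.5 in the control and 16469 at 1 Gy. Genes starting MT- took 4.6% of the UMIs at 10 mGy and 4.4% at 100 mGy, and ribosomal protein genes took 20.2% and 22.1%, against 14.1% in both the control and the 1 Gy library. Of the barcodes used, 51 occurred in both libraries, and leaving them out gave 112 higher and 999 lower genes, beside 111 and 997 with them. The keratins KRT7, KRT8, KRT17 and KRT18 were abundant, while the epithelial markers CDH1, KRT5, KRT14 and TP63 were at or near 0 and EPCAM stood at 1.09 and 1.19 CPM. The mesenchymal marker VIM stood at 2498 CPM at 10 mGy and 2339 at 100 mGy (ratio 0.936). The other mesenchymal markers of at least 10 CPM went both ways: CDH2 1.130, FN1 1.020, COL1A1 1.017, ZEB2 0.882, ZEB1 0.839 and SNAI2 0.602. The epithelial markers of at least 10 CPM ranged from 0.629 (ITGA6) to 1.189 (KRT18). Of 12 epithelial markers 6 reached 10 CPM, and of 8 mesenchymal markers 7 did. Markers of secretory and ciliated airway cells summed to 1.34 CPM in each library, and endothelial and erythroid markers to less than 1 CPM. Fibroblast markers summed to 348 and 308 CPM, of which THY1 made 340 and 299. Immune markers summed to 11.4 and 8.51 CPM, of which CD68 made 9.79 and 7.03.

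More genes were lower at 100 mGy than were higher. Of the 8057 genes, 997 were at least 1.2-fold lower (12.4%) and 111 were at least 1.2-fold higher (1.38%), so that 10.0% of the genes past the fold were higher. The median ratio was 0.953, a log2 value of -0.07, and 90% of the genes lay between -0.37 and 0.18. This split depended on the scaling. With the median of ratios as the scale, 322 genes were higher and 557 lower (36.6% higher). Dividing by the total without ribosomal protein and MT- genes gave 193 and 746 (20.6% higher), and subtracting the median of genes of like exonic length gave 268 and 533 (33.5% higher). At 1.5-fold, 73 genes were lower (0.906%) and 6 were higher (0.0745%). Every gene rested on at least 2338 UMIs at 10 mGy, and the interval of the ratio lay below 1 for 4604 genes, above 1 for 1918 and across 1 for 1535.

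**Figure D1:**
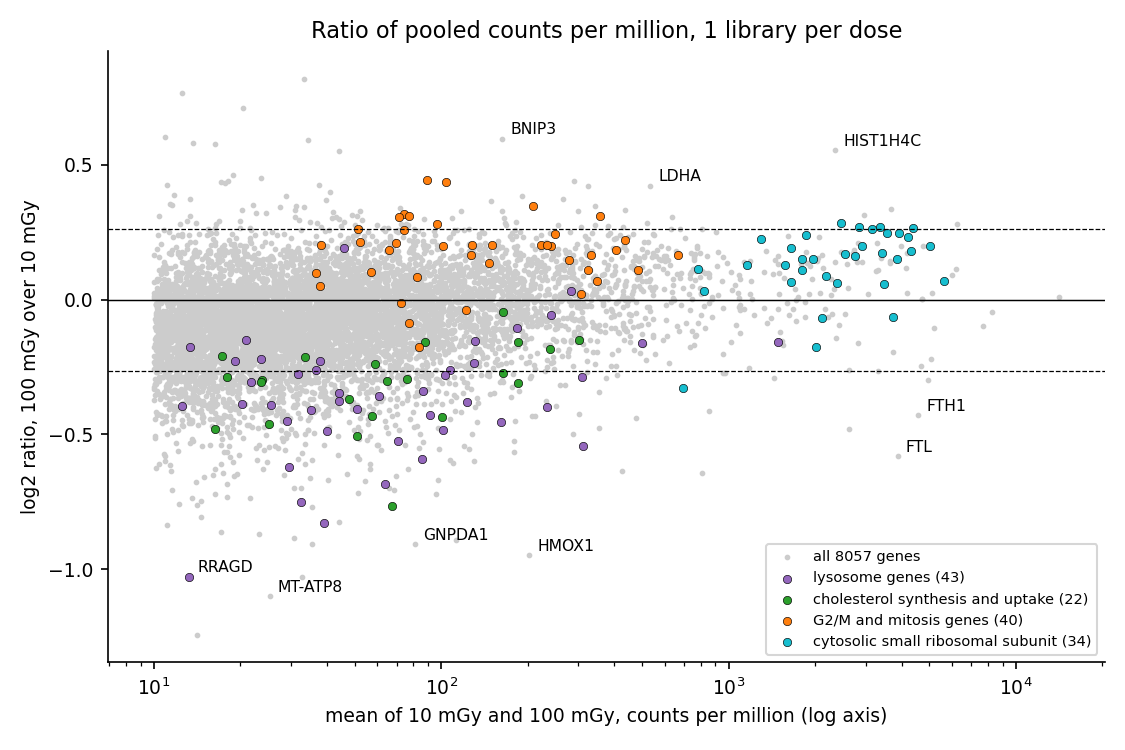
The log2 ratio of pooled CPM, 100 mGy over 10 mGy, of 8057 genes (grey) is drawn against their mean CPM on a log axis, with dashed lines at 1.2-fold. Lysosome genes (purple) and cholesterol genes (green) lie mostly below 0, and genes of mitosis (orange) and of the small ribosomal subunit (blue) mostly above it.

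The place of each gene among the 4 libraries is given as a description, since choosing genes by the ratio of 100 to 10 mGy fixes part of it. A lower gene cannot be highest at 100 mGy, nor a higher gene lowest there. Of the 997 lower genes, 877 (88.0%) had their lowest value of the 4 libraries at 100 mGy, as did 54.5% of all 8057 genes, and 247 (24.8%) had their highest value at 10 mGy, against 14.7% of all genes. Of the 111 higher genes, 63 had their highest value at 100 mGy (56.8%, against 14.2% of all genes) and 64 their lowest at 10 mGy (57.7%, against 18.8%). For 57 of the 111 the 100 mGy value was closer to the control than the 10 mGy value was (51.4%, against 32.8% of all genes).

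Among genes with a mean of at least 50 CPM, HMOX1 (ENSG00000100292) had the lowest ratio. HMOX1 encodes heme oxygenase 1, which splits heme and sets its iron free. It stood at 267 CPM at 10 mGy and 138 at 100 mGy, beside 313 in the control and 352 at 1 Gy. The ratio was 0.518 (0.511 to 0.525), and the 100 mGy library was the lowest of the 4. The ferritin subunits that store iron, which were not among the 12 lowest ratios, were lower as well, with FTL at 4645 and 3106 CPM (ratio 0.669, 0.667 to 0.671) and FTH1 at 5247 and 3902 CPM (ratio 0.744, 0.742 to 0.746). For both ferritins the 10 mGy library stood above the other 3, with the control at 2616 CPM for FTL and 3980 CPM for FTH1. HMOX1 and the ferritins thus differed in their place in the series, since HMOX1 at 10 mGy was below the control. Ferritin genes have many processed copies in the genome, and reads shared with such copies make their counts less certain.

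The other NRF2 targets named here were closer to 1. NRF2 is the transcription factor that raises antioxidant and detoxifying enzymes. Of 16 measured members of the list, 3 were at least 1.2-fold lower, namely HMOX1, FTL and FTH1, a share of 18.8% against 12.4% of all genes, and 0 were higher, with a median log2 ratio of -0.15. NQO1, a quinone reductase, stood at 191 CPM at 10 mGy and 179 at 100 mGy (ratio 0.939), TXNRD1, thioredoxin reductase, at 442 and 416 CPM (0.943), and GCLM, which modulates the first step of glutathione synthesis, at 115 and 112 CPM (0.974). The enzyme PGD of the pentose phosphate pathway gave 102 and 103 CPM. In cells thinned at random to 5000 UMIs each, the median cell held 22 FTL molecules at 10 mGy and 15 at 100 mGy, and 25 and 19 FTH1 molecules. For FTL the 5th percentile of cells was 12 molecules at 10 mGy against 6 at 100 mGy, and the 95th was 37 against 27, so low and high cells alike held fewer at 100 mGy.

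The next lowest ratios belonged to genes of mixed kinds. GNPDA1 (ENSG00000113552), a glucosamine-6-phosphate deaminase, stood at 106 CPM at 10 mGy and 56.4 at 100 mGy (ratio 0.533, 0.522 to 0.544). VAT1, a vesicle membrane protein, stood at 146 and 78.9 CPM (0.539, 0.530 to 0.549). For INSIG1, which holds the sterol-sensing SREBP complex in the endoplasmic reticulum, the values were 84.8 and 49.9 CPM (0.589, 0.576 to 0.602). These 3 genes shared a pattern in which the 10 mGy library was the highest of the series and the 100 mGy library the lowest. The purine transporter SLC43A3 gave 64.0 and 38.9 CPM (0.609) and the YAP target ANKRD1 85.1 and 52.2 CPM (0.613), with the same order of libraries. GREM1, a secreted inhibitor of bone morphogenetic proteins, gave 120 and 72.5 CPM (0.606), but here both were far below the control at 243 CPM and the 1 Gy library at 227 CPM. The remaining members of the 12 lowest were MT-ND6 (0.617), RRAGC (0.622), AHNAK2 (0.628), NIBAN1 (0.628) and SPHK1 (0.635), and the next in order were BRI3 (0.640) and DCBLD2 (0.644). For all 12 the 100 mGy library was the lowest of the 4.

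**Figure D2:**
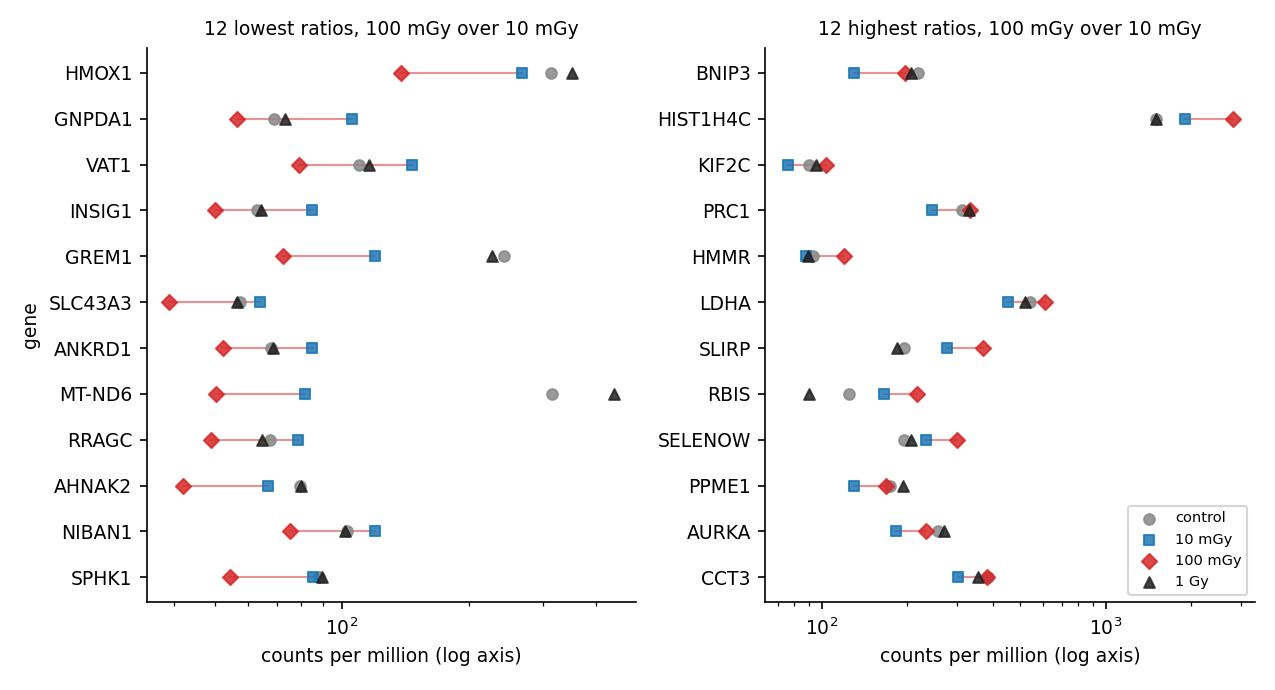
CPM on a log axis of the 12 genes with the lowest and the 12 with the highest ratio, in the control (circles), 10 mGy (squares), 100 mGy (diamonds) and 1 Gy (triangles) libraries, 1 value each. In the left panel the 100 mGy library is the leftmost for each gene, while in the right panel BNIP3, KIF2C, PRC1, HMMR, LDHA, PPME1, AURKA and CCT3 have their lowest value at 10 mGy.

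Lysosome genes were lower at 100 mGy almost throughout. Lysosomes break down proteins, lipids and glycans with acid hydrolases, and the transcription factors TFEB and TFE3 raise many of their genes through a short element called CLEAR. The list was taken up after values of these data were seen. Of its 43 measured members 28 were at least 1.2-fold lower and 0 were higher, with a median log2 ratio of -0.36, against -0.07 over all genes and 12.4% of all genes lower. Only CTSC and LAMTOR5 lay above 1. Under the other settings the median stayed between -0.38 and -0.26.

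The soluble hydrolases were among the lower members. NEU1, the lysosomal sialidase, stood at 49.9 CPM at 10 mGy and 28.2 at 100 mGy (ratio 0.564), with 31.1 in the control. The proteases CTSB, CTSD and CTSL gave ratios of 0.731, 0.744 and 0.695, and TPP1, a tripeptidyl peptidase, gave 0.651. In this group the protease CTSC was an exception at 42.8 and 48.9 CPM (1.142, 1.113 to 1.172). Membrane proteins were lower as well. LAMP1 stood at 118 and 84.6 CPM (0.715), and NPC1, which exports cholesterol from the lysosome, at 40.9 and 24.3 CPM (0.594). The tetraspanin CD63, the member with the most UMIs, gave 1563 and 1401 CPM (0.896).

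The Rag GTPases, which bring the growth regulator mTORC1 to the lysosome when amino acids are present, included the lowest ratio of the list. RRAGD stood at 17.8 CPM at 10 mGy and 8.75 at 100 mGy, with 11.5 in both the control and the 1 Gy library (ratio 0.491, 0.466 to 0.517). RRAGC stood at 78.7 and 48.9 CPM (0.622, 0.608 to 0.636), with 67.4 in the control. Small subunits moved less, with LAMTOR5 of the Ragulator complex at 280 and 286 CPM (1.022) and LAMTOR4 at 247 and 238 CPM (0.962). The autophagy receptor SQSTM1 gave 369 and 253 CPM (0.687). Relative to the control the list median was a log2 ratio of 0.23 at 10 mGy and -0.11 at 100 mGy. Summed over the 46 list genes, the median cell thinned to 5000 UMIs held 30 molecules at 10 mGy and 25 at 100 mGy, against 23 in the control and 23 at 1 Gy.

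Promoters of a few of these genes, and of GNPDA1 from the 12 lowest ratios, are shown because they hold the CLEAR-type letters CACGTGAC, on either strand, in capitals. They are the 120 bases before the annotated start from RefSeq (GRCh38.p14), written 5′ to 3′ in the direction of the gene, for RRAGC at chr1:38859773-38859892 (minus strand), GNPDA1 at chr5:142013028-142013147 (minus strand), CTSA at chr20:45891215-45891334 (plus strand) and CTSD at chr11:1763928-1764047 (minus strand).
RRAGC: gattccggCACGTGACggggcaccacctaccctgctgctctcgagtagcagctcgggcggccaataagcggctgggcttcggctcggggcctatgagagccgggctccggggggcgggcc
GNPDA1: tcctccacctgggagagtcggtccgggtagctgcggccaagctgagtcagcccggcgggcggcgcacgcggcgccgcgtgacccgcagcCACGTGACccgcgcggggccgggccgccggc
CTSA: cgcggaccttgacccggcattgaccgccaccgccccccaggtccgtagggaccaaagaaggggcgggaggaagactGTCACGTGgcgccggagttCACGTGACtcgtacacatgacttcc
CTSD: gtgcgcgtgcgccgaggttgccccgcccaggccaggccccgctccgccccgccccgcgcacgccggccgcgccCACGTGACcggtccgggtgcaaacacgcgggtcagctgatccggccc
CTSA, a protective protein and protease, stood at 139 and 107 CPM (0.769) and CTSD, cathepsin D, at 105 and 78.0 CPM.

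Over the whole table, genes with these letters were lower more often. A RefSeq window of 250 bases before to 50 after the start was matched by symbol for 6572 of the 8057 genes (81.6%). CACGTGAC or its reverse complement lay in 690 of all 27305 promoters (2.53%) and in 336 of the 6572 matched genes (5.11%). Of those 336 genes, 73 were at least 1.2-fold lower (21.7%), against 11.6% of the 6236 genes without the letters, and the median log2 ratio was -0.12 with them and -0.07 without. Within the lysosome list, 28 genes were matched and 9 held the letters, of which 6 were lower, and 11 of those without the letters were lower too. The antioxidant element core TGACNNNGC, which shares its first letters with the end of CACGTGAC, lay in 13.6% of all promoters, in 15.7% of the matched genes and in 17.9% of the lower ones. HMOX1 and VAT1 were not matched. A match of letters is a description and not a measured binding site.

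Genes of cholesterol synthesis and uptake were also lower as a group. Cells make cholesterol from acetyl-CoA through mevalonate and squalene, and the factor SREBP2 raises these genes together when sterols are low. All 22 members were measured, 14 of them were at least 1.2-fold lower (63.6%, against 12.4% of all genes) and 0 were higher (1.38% of all genes), the median log2 ratio was -0.30, and no member lay above 1. HMGCS1, which makes the precursor HMG-CoA, stood at 42.2 CPM at 100 mGy, below the control at 49.2, and its ratio to 10 mGy was 0.704 (0.687 to 0.722). IDI1 gave 116 and 85.6 CPM (0.740) and the cyclase LSS 65.8 and 48.8 CPM (0.742), so early and late steps were both among the lower members. The squalene synthase FDFT1 gave 205 and 166 CPM (0.808) and the epoxidase SQLE 254 and 223 CPM (0.881). CYP51A1 was closest to 1 at 166 and 161 CPM (0.968). Relative to the control the list median was 0.20 at 10 mGy and -0.16 at 100 mGy. The sterol response element was found in 0.154% of all promoters and in 1 of the 15 matched genes of the list.

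**Figure D3:**
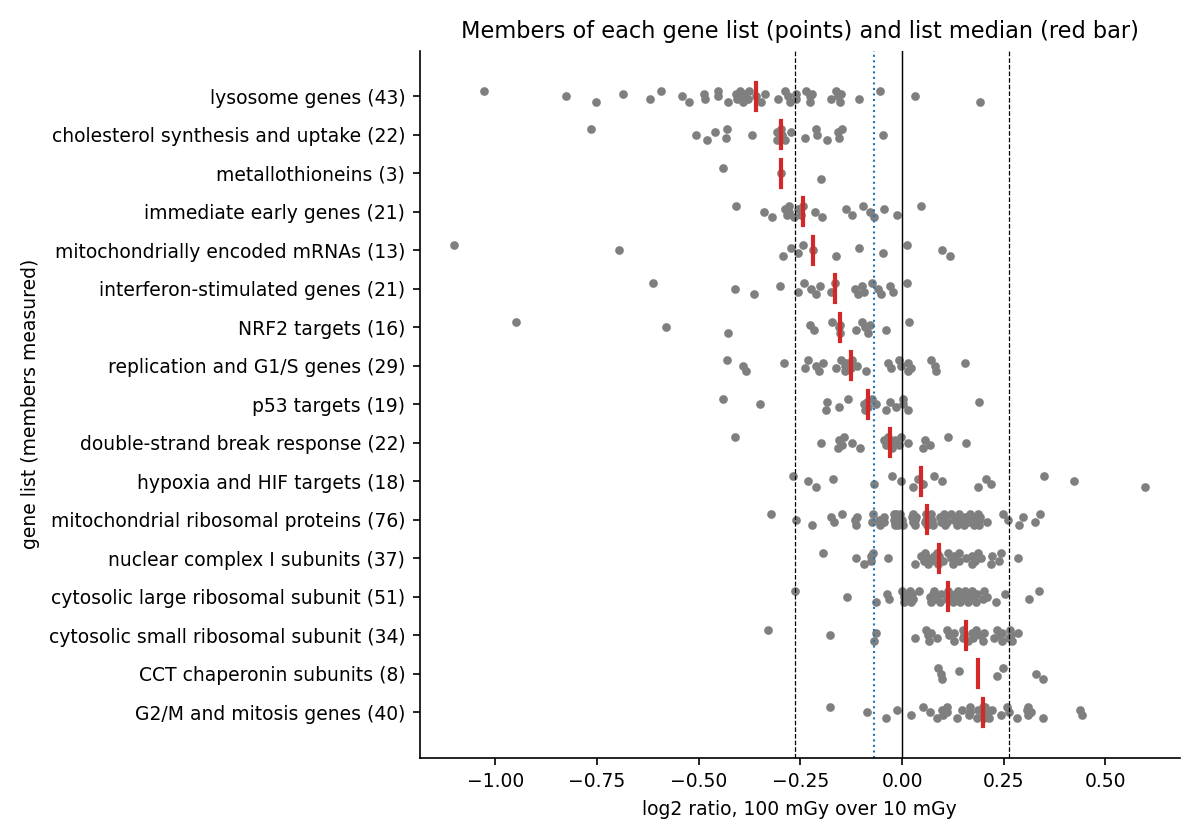
Each point is the log2 ratio, 100 mGy over 10 mGy, of 1 gene of the list named at the left, red bars are list medians, dashed lines mark 1.2-fold and the dotted line the median of all genes at -0.07. The lysosome, cholesterol and immediate early lists sit left of that line and the ribosomal, chaperonin and mitosis lists right of it.

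Immediate early genes were lower or close to 1. Of 21 measured members 8 were at least 1.2-fold lower (38.1%, against 12.4% of all genes) and 0 were higher (1.38% of all genes), with a median log2 ratio of -0.24 against -0.07 over all genes. DUSP1, a phosphatase that ends MAP kinase signals, stood at 99.6 CPM at 10 mGy and 82.2 at 100 mGy (ratio 0.825, 0.810 to 0.840). JUN gave 231 and 193 CPM (0.838, 0.828 to 0.848), with 276 in the control and 258 at 1 Gy. ATF3 gave 12.5 and 10.0 CPM (0.801), and FOS, under the minimum of 10 CPM, gave 7.02 and 4.56 CPM beside 15.4 in the control. EGR1 was an exception in the pooled counts, with 51.4 and 53.1 CPM (1.033) and the control below both at 40.1. Its ratio was 0.952 (0.919 to 0.986) in cells of 10000 to 20000 UMIs and 0.957 (0.920 to 0.995) in those of 20000 to 40000. In cells of 5000 to 10000 UMIs it was 0.940, and in those of at least 40000 it was 1.008. Both low doses lay under the control, with list medians of -0.38 at 10 mGy and -0.58 at 100 mGy, while the 1 Gy library gave 0.05. Unrelated lists did so too, with -0.48, -0.52 and 0.03 for zinc finger genes and -0.45, -0.72 and -0.03 for NF-kB targets. Some lists lay above the control at both low doses, such as the small ribosomal subunit at 0.62, 0.77 and 0.03. The place under the control was thus not particular to immediate early genes, and its cause was not tested. IER3, an early gene that restrains cell death, gave 450 and 371 CPM (0.824), with 448 in the control.

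Targets of p53 and genes of the break response had medians close to that of all genes or to 0. Of 19 measured p53 targets 2 were at least 1.2-fold lower (10.5%, against 12.4% of all genes) and 0 were higher, with a median log2 ratio of -0.08. CDKN1A, the inhibitor of cyclin-dependent kinases, stood at 31.7 CPM at 10 mGy and 24.8 at 100 mGy (ratio 0.785, 0.759 to 0.811), with 28.6 in the control and 28.9 at 1 Gy. PHLDA3, an inhibitor of AKT, gave 34.2 and 25.2 CPM (0.737). MDM2, which marks p53 for degradation, gave 29.8 and 29.9 CPM (1.001, 0.970 to 1.034), both below the control at 61.2. In cells of 5000 to 10000 UMIs the ratios moved by over 1.5 times, to 0.656 for MDM2 (0.557 to 0.774) and 0.483 for CDKN1A (0.412 to 0.567), and MDM2 was at 1.032 in cells of 10000 to 20000 UMIs. GDF15 was listed at 1.33 and 1.27 CPM. Of 22 measured break response genes 1 was lower (4.55%, against 12.4% of all genes), PALB2 at 18.1 and 13.6 CPM (0.752), and the median of -0.03 turned to 0.07 when genes of like length were set to 0. XRCC5, the larger Ku subunit, gave 481 and 537 CPM (1.115).

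Most genes of mitosis lay above 1 at 100 mGy, and some passed 1.2-fold. In the G2 phase and mitosis, cells build the spindle with kinesins and Aurora and Polo kinases and then degrade cyclin B through the anaphase-promoting complex. All 40 members of the list were measured, 9 were at least 1.2-fold higher against 1.38% of all genes and 0 were lower, 36 lay above 1, and the median log2 ratio was 0.20. Among cells with few molecules of mitotic core genes it was 0.08. Core genes such as AURKA and KIF2C are also on the list, so this value is set in part by the choice of cells. KIF2C, a kinesin that takes microtubule ends apart, stood at 75.8 CPM at 10 mGy and 103 at 100 mGy (ratio 1.359, 1.334 to 1.385). PRC1, which bundles microtubules of the midzone, gave 245 and 333 CPM (1.357, 1.344 to 1.372), and HMMR, a spindle protein, 88.1 and 119 CPM (1.355, 1.331 to 1.378). The kinase AURKA gave 183 and 233 CPM (1.271, 1.256 to 1.287). Other list members stayed near 1, with the proliferation marker MKI67 at 339 and 356 CPM (1.049), TOP2A at 304 and 308 CPM (1.016) and CDK1 at 79.4 and 74.8 CPM (0.941). The lowest member was TACC3, a spindle protein, at 88.8 and 78.6 CPM (0.885, 0.868 to 0.902).

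For some of these genes both low doses stood below the control. MKI67 stood at 682 CPM in the control and 665 at 1 Gy, CENPE, a kinesin of the kinetochore, at 129 and 111 CPM beside 63.8 at 10 mGy and 78.9 at 100 mGy, and over the list the median log2 ratio to the control was -0.27 at 10 mGy and -0.13 at 100 mGy. KIF2C, PRC1 and HMMR were above the control at 100 mGy, where they were highest of the 4 libraries, with the control at 89.9, 311 and 93.1 CPM. The 1 Gy library gave 95.6, 331 and 89.0 CPM, so PRC1, at 333 CPM at 100 mGy, was nearly level with it. A set of 12 mitotic core genes, chosen after values were seen, was summed in cells thinned to 5000 UMIs. At least 10 molecules were found in 37.6% of cells at 10 mGy (36.8 to 38.5, exact binomial interval) and 46.9% at 100 mGy (46.1 to 47.7), against 60.3% in the control and 64.0% at 1 Gy. These intervals cover the sampling of cells within 1 library and not variation between libraries. The set holds AURKA and KIF2C, which are among the 12 highest ratios, so the direction was set in part by the choice of genes. Without thinning, at 10 molecules per 5000 UMIs, the shares were 32.6% and 42.5%. Among cells of 10000 to 20000 UMIs the thinned shares were 29.8% and 43.1%, and among those of 20000 to 40000 UMIs 44.3% and 59.6%. The latter class held 5792 of 12515 cells at 10 mGy and 3408 of 14245 at 100 mGy. A class is thus not the same part of each library, and in both the share was larger in the deeper class. For all 40 mitosis genes, at least 20 molecules were found in 84.4% of cells at 10 mGy and 89.0% at 100 mGy. No cell type that should lack these genes was present in the libraries, so the share that free RNA gives was not measured.

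Stretches of the promoters of PRC1 and HMMR are shown because they carry the letters TTTGAA, the cell cycle homology region found before many mitosis genes, in capitals. The RefSeq stretches (GRCh38.p14), again 120 bases before the start, lie at chr15:90994536-90994655 (minus strand) and chr5:163460512-163460631 (plus strand).
PRC1: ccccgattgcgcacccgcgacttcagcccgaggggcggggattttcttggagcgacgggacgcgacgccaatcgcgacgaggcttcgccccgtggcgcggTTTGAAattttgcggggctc
HMMR: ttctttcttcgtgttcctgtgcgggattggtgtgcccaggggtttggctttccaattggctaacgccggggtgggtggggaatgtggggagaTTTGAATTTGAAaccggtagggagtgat
The mitosis list does not hold PRC1. The letters TTTGAA or their reverse complement lay in 24 of 34 matched genes of that list and in 15.4% of all promoters, and CCAAT in 27 of 34 and in 35.7%. Of 617 matched genes with TTTGAA, 3.40% were at least 1.2-fold higher, against 0.974% of the 5955 without it. For CCAAT the shares were 1.17% with it and 1.22% without. Within the mitosis list, 5 of the 24 genes with TTTGAA were higher and 2 of those without it, and for CCAAT 4 of 27 with it and 3 of those without.

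The histone gene HIST1H4C (ENSG00000197061) had the second of the 12 highest ratios. HIST1H4C encodes histone H4, which cells make in S phase, and most such transcripts lack the poly(A) tail by which the mRNA was captured. It stood at 1909 CPM at 10 mGy and 2803 at 100 mGy, a ratio of 1.468 (1.463 to 1.473), beside 1508 in the control and 1502 at 1 Gy. In cells thinned to 5000 UMIs it split the cells into a low and a high group. At least 15 molecules were found in 23.4% of cells at 10 mGy (22.7 to 24.2) and 43.4% at 100 mGy (42.6 to 44.2), against 11.9% in the control and 11.4% at 1 Gy. Here too the intervals cover the sampling of cells within 1 library only. Without thinning the shares were 22.7% and 43.3%. The upper end moved as well, since the 90th percentile was 20 molecules at 10 mGy and 28 at 100 mGy, beside 15 in both other libraries. The ratio was 1.925 among cells of 10000 to 20000 UMIs and 1.327 among those of 20000 to 40000.

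The other histone genes differed among themselves and between depths. Of 17 measured members 1 was higher, HIST1H4C itself (5.88%, against 1.38% of all genes), and 2 were lower (11.8%, against 12.4%), with a median of 0.01 that ranged from -0.37 to 0.41 between cells of different depth. HIST1H3B, a histone H3 gene, gave 71.1 and 49.0 CPM (0.688, 0.673 to 0.705), and HIST1H1B, a linker histone, 129 and 153 CPM (1.187). Genes of the G1/S transition and of replication were lower about as often as all genes. Of 29 measured members 4 were lower (13.8%, against 12.4% of all genes) and 0 higher, with a median log2 ratio of -0.13. PCNA, the sliding clamp of DNA polymerase, stood at 243 CPM at 10 mGy and 181 at 100 mGy (0.742, 0.733 to 0.751), with 178 in the control, CCNE2 gave 35.0 and 26.7 CPM (0.763) and MCM2, a helicase subunit, 54.9 and 42.1 CPM (0.767). The reductase subunits RRM1 and RRM2 gave ratios of 1.060 and 0.999. At least 10 molecules of this list per 5000 were found in 82.3% of cells at 10 mGy and 76.4% at 100 mGy.

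**Figure D4:**
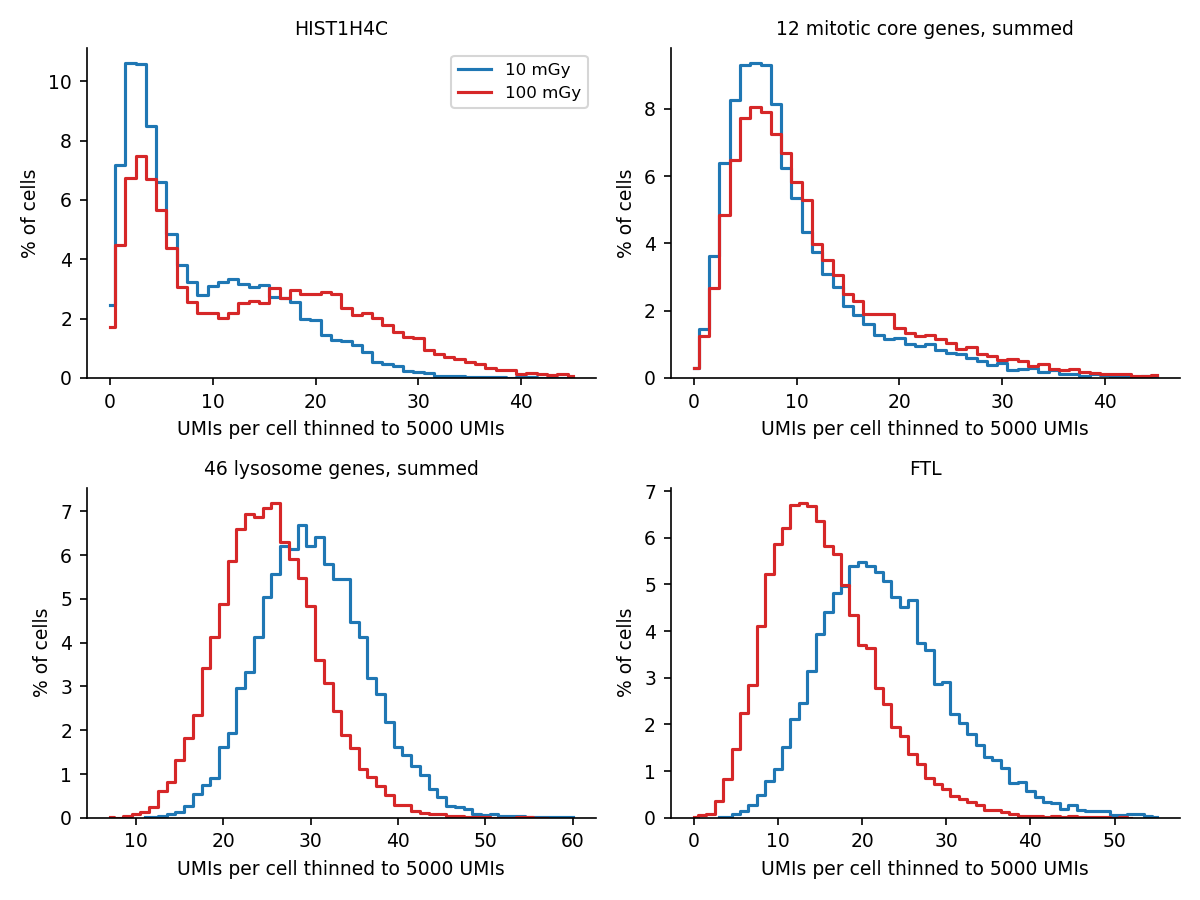
Share of cells, in percent, by the number of molecules after each cell was thinned to 5000 UMIs, at 10 mGy (blue, 12515 cells) and 100 mGy (red, 14245 cells), for HIST1H4C, the 12 mitotic core genes, the 46 lysosome genes and FTL. HIST1H4C has a low and a high group of cells, with the high group larger and farther right at 100 mGy, while the lysosome and FTL curves lie to the left at 100 mGy as a whole.

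BNIP3, a receptor for the removal of mitochondria, had the highest ratio among genes of at least 50 CPM. It stood at 130 CPM at 10 mGy and 196 at 100 mGy, a ratio of 1.513 (1.493 to 1.535), beside 219 in the control and 205 at 1 Gy, so that the 10 mGy library was the one that stood apart. LDHA, lactate dehydrogenase A, stood at 455 and 610 CPM (1.341, 1.331 to 1.351) beside 543 in the control, and P4HA1, a collagen prolyl hydroxylase, at 27.6 and 35.1 CPM (1.273). All 3 are known targets of the hypoxia factor HIF. Of the 18 measured members of the hypoxia list, taken up after values were seen, 3 were higher (16.7%, against 1.38% of all genes) and 1 was lower (5.56%, against 12.4%), with a median log2 ratio of 0.05. The lower member was ADM, adrenomedullin, at 159 and 132 CPM (0.831), and VEGFA gave 21.4 and 18.4 CPM (0.864). Glycolysis as a list showed 1 higher and 1 lower member of 17 (5.88% each, against 1.38% and 12.4% of all genes), with GAPDH at 2299 and 2363 CPM (1.028).

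The rest of the 12 highest ratios were of mixed kinds. SLIRP, which binds mitochondrial transcripts, stood at 277 CPM at 10 mGy and 371 at 100 mGy (ratio 1.340, 1.327 to 1.353), with 195 in the control. RBIS, a factor of ribosome assembly, gave 165 and 216 CPM (1.307) and the selenoprotein SELENOW 232 and 300 CPM (1.294). For these 3 genes both low doses stood above the control. PPME1, a methylesterase of protein phosphatase 2A, gave 130 and 168 CPM (1.290), with 174 in the control. CCT3, a subunit of the chaperonin that folds actin and tubulin, gave 302 and 383 CPM (1.271, 1.259 to 1.283). All 8 chaperonin subunits lay above 1, with a median log2 ratio of 0.19, and 2 of them, CCT3 and CCT2, passed 1.2-fold, as did 1.38% of all genes in that direction. That list too was taken up after values were seen. The next genes in order were MRPL23 (1.265), RPL11 (1.262) and PDCD5 (1.260).

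Most ribosomal protein genes lay a little above 1, and few passed 1.2-fold. Of 51 measured genes of the large subunit 45 lay above 1, 2 were at least 1.2-fold higher (3.92%, against 1.38% of all genes) and 0 lower (12.4% of all genes), with a median log2 ratio of 0.11. Of 34 of the small subunit 30 lay above 1, 5 were higher (14.7%) and 1 lower (2.94%), with a median of 0.16. The shares over all genes depend on level. Among the 1602 genes of at least 100 CPM, 37 were higher and 88 lower, with a median log2 ratio of 0.01. RPL11 stood at 3241 CPM at 10 mGy and 4091 at 100 mGy (1.262, 1.259 to 1.266). RPS28 gave 3973 and 4778 CPM (1.202, 1.199 to 1.206) and RPS12 gave 3593 and 4261 CPM (1.186). Of the large subunit 6 genes lay below 1 and of the small one 4. RPL13A was the lowest of the large subunit at 2862 and 2386 CPM (0.834), and RPS27L, a p53-responsive relative of RPS27, that of the small one at 773 and 615 CPM (0.796). Relative to the control the medians were 0.52 and 0.62 at 10 mGy and 0.59 and 0.77 at 100 mGy, for the large and the small subunit. Many of these genes have near-identical processed copies, which makes their counts less certain.

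Nuclear genes of the respiratory chain had medians slightly above 0 with 1 member past 1.2-fold, and most mitochondrially encoded ones were below 1. Of 37 complex I subunits 1 was higher (2.70%, against 1.38% of all genes), NDUFB3 at 150 and 183 CPM (1.219), and 0 were lower, with a median of 0.09. The 36 subunits of complexes III, IV and V had 0 genes past the fold and a median of 0.10, and COX6C gave 291 and 342 CPM (1.177). Of 76 mitochondrial ribosomal proteins 4 were higher (5.26%) and 1 lower (1.32%, against 12.4% of all genes), with a median of 0.06. Of 13 mitochondrially encoded mRNAs 4 were lower (30.8%, against 12.4% of all genes) and 0 higher, 10 lay below 1, and the median log2 ratio was -0.22. MT-ATP8 stood at 34.5 CPM at 10 mGy and 16.1 at 100 mGy (0.466, 0.449 to 0.484), MT-ND6, the gene of the light strand, at 81.7 and 50.4 CPM (0.617), and MT-ND2 at 1584 and 1294 CPM (0.817). Against these, MT-CYB gave 3984 and 4326 CPM (1.086) and MT-CO2 14115 and 14229 CPM (1.008). Both turned with depth, MT-CYB from 1.206 in cells of 5000 to 10000 UMIs to 0.914 (0.900 to 0.929) in those of at least 40000, and MT-CO2 from 1.188 to 0.864. The MT-ATP8 and MT-ATP6 genes overlap, so reads at their junction cannot be told apart.

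Further stress and matrix lists are given beside the 12.4% of all genes that were lower and the 1.38% that were higher. Of 3 measured metallothioneins, which bind zinc and copper, 2 were lower, with MT2A at 5464 CPM at 10 mGy and 4443 at 100 mGy (0.813) and MT1E at 551 and 406 CPM (0.738), both still above the control at 3039 and 262 CPM. Interferon-stimulated genes had 4 lower (19.0%) and 0 higher of 21, with IFIT3 at 12.6 and 8.25 CPM (0.655) and ISG15 at 135 and 136 CPM (1.008). Of 15 targets of NF-kB 5 were lower (33.3%) and 1 higher, with the adhesion molecule ICAM1 at 29.8 and 19.6 CPM (0.659) and BIRC3, an inhibitor of apoptosis, at 10.2 and 13.4 CPM (1.309), and the list median of -0.10 was near that of all genes. Targets of ATF4 had 5 lower of 16 (31.2%), among them the secreted glycoprotein STC2 at a ratio of 0.679, and their median was -0.08. Collagens and laminins had 5 lower (38.5%) and 1 higher of 13, and their median of -0.17 turned to 0.07 among genes of at least 100 CPM. Of the nuclear retained RNAs, NEAT1 gave 3049 and 2187 CPM (0.717) and MALAT1 7952 and 7428 CPM (0.934). The MALAT1 ratio turned with depth, from 1.030 (1.026 to 1.033) in cells of 10000 to 20000 UMIs to 0.863 in those of 20000 to 40000. It was 1.000 in cells of 5000 to 10000 UMIs and 0.801 in those of at least 40000.

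The other lists covered the cytoskeleton, stress proteins and RNA processing, again beside 12.4% of all genes lower and 1.38% higher. Giant cytoskeletal genes had 4 lower of 20 (20%), matricellular genes 4 of 14 (28.6%), and zinc finger genes 8 lower (8.16%) and 1 higher of 98, against 12.4% of all genes lower, and these 3 medians lay between -0.10 and -0.04 and crossed 0 under other settings. Heat shock proteins had 1 higher of 18 (5.56%), HSPE1 at 732 and 879 CPM (1.201), and HSPA1A, which cells raise under heat, gave 28.0 and 29.3 CPM (1.046). Proteasome subunits had 1 higher and 1 lower of 37 (2.70% each), PSMD1 at 1.212 and PSMD14 at 0.733. Among actin and related genes TMSB10, a thymosin, gave 5638 and 6845 CPM (1.214). The splicing regulators of the HNRNP, SRSF and SRRM families had 2 lower of 33 (6.06%) and the TOP mRNAs of translation factors 1 lower of 23 (4.35%). The hosts of small nucleolar RNAs had 2 lower (8.0%) and 1 higher (4.0%) of 25. None of the 31 snRNP and LSM genes and none of the 7 S100 genes passed 1.2-fold, and S100A6 gave 3976 and 3477 CPM (0.875).

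The ratios were also taken within classes of UMIs per cell, and some genes varied between classes. Cells were split at 10000, 20000 and 40000 UMIs, with 547 and 2229 cells in the lowest class at 10 and 100 mGy and 454 and 156 in the highest. Over all genes, 512 were higher and 1213 lower in the lowest class, 184 and 989 in the next, 163 and 1257 in the one after, and 327 and 2292 in the highest, where few cells were pooled. HMOX1 had ratios of 0.538, 0.528, 0.517 and 0.534 from the lowest to the highest class. BNIP3 had 1.547, 1.533, 1.478 and 1.396, and LDHA 1.269, 1.303, 1.361 and 1.373. AURKA varied more, at 1.014 (0.943 to 1.092) in the lowest class and 1.387 and 1.383 in the middle ones, as did KIF2C, at 1.096 (0.976 to 1.235), 1.546, 1.420 and 1.206. HIST1H4C gave 1.923, 1.925, 1.327 and 1.440. CDKN1A gave 0.483, 0.712, 0.853 and 0.824, farthest from 1 in the class of fewest UMIs. The low-count gene GDF15 ranged from 0.409 (0.195 to 0.888) to 3.475 (1.763 to 6.919). Among cells with under 5 molecules of the mitotic core per 5000, which were 2507 cells at 10 mGy and 2209 at 100 mGy, HMOX1 gave 0.553 and BNIP3 1.475. AURKA and KIF2C belong to that core, so their values there, 1.017 and 1.184, are set in part by the choice of cells.

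**Figure D5:**
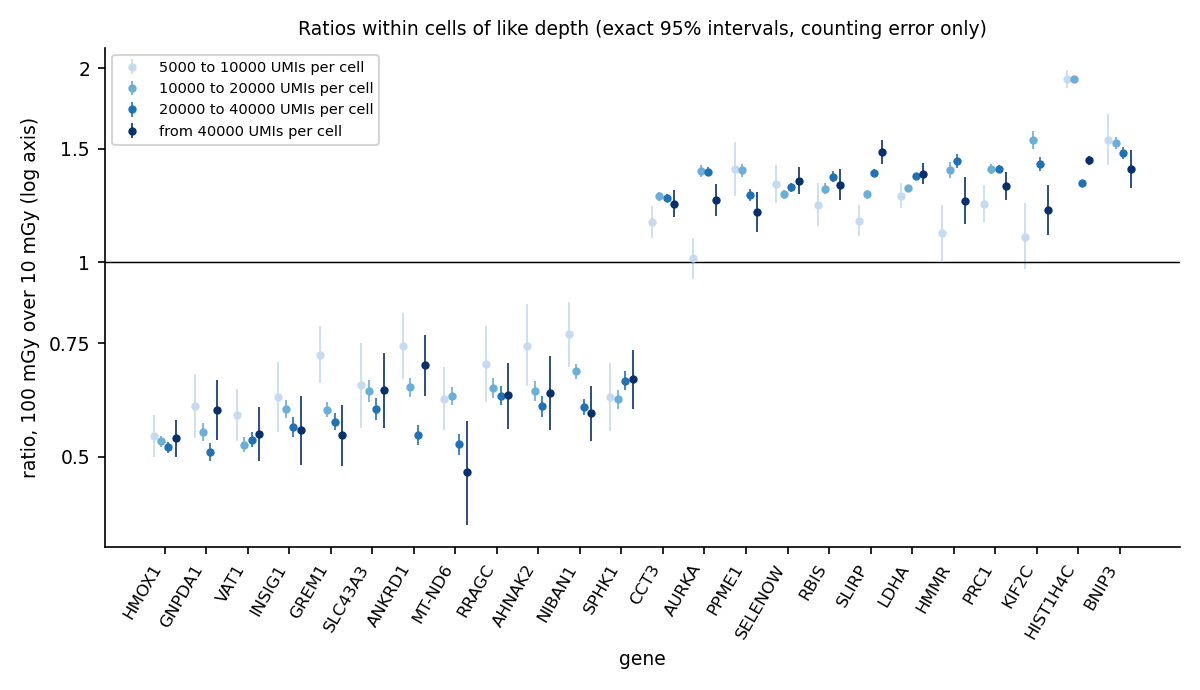
Ratio of CPM, 100 mGy over 10 mGy, on a log axis, for the 12 lowest and 12 highest genes within 4 classes of UMIs per cell, with exact 95% intervals for counting error. The 12 genes at the left stay below 1 in each class and the 12 at the right above it, with AURKA at 1.014 in the class of fewest UMIs.

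Exonic length, joined over all annotated exons of a gene, and level of the gene both moved with the ratio. The Spearman correlation across 8054 genes between the log2 ratio and the exonic length was -0.21, with GC content it was -0.04 and with mean CPM, across all 8057 genes, 0.27, where genes are not independent and share both libraries. The median log2 ratio was -0.01 in the fifth of shortest genes and -0.11 in the fifth of longest. For comparison, the correlation of length with the ratio of 10 mGy to the control was -0.56. Among genes with a mean of at least 100 CPM the median log2 ratio was 0.01, with 37 higher and 88 lower (29.6% of these higher). The part of length and of level in the results was not tested.

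Variation between cells was described by the standard deviation over the mean of UMIs scaled to 10000 per cell, since the study screened genes for a dispersion that is lower at the higher dose. It was lower at 100 mGy for 24 of the 8057 genes (0.298%), and its median was 122% at 10 mGy and 145% at 100 mGy. This measure includes counting variance, which is larger relative to the mean in cells of fewer UMIs. The median cell held 19987 UMIs at 10 mGy and 15224 at 100 mGy, so the 24 genes cannot be read against the study's screen. Among cells of 10000 to 20000 UMIs it was lower for 873 of 8090 genes, and among those of 20000 to 40000 for 1990 of 8054. The same measure in cells thinned to 5000 UMIs was lower at 100 mGy for 2531 genes (31.4%), with medians of 232% and 238%, and after subtracting the counting variance for 2543 genes (31.6%). The direction of single lists depended on the method. Of the 40 mitosis genes, 4 were lower as measured, 37 after thinning and 23 after subtraction, and of the 43 lysosome genes 0, 1 and 13. Counting variance remains in thinned cells and is smaller relative to a higher mean, so the thinned counts cannot be told apart from the ratios. Of the mitosis genes 36 had ratios above 1, and of the lysosome genes 41 had ratios below 1. After subtraction the list medians were 59.7% and 59.9% for mitosis and 20.4% and 23.5% for lysosome genes, at 10 and 100 mGy.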

How the data were processed

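The authors deposited unnormalized UMI counts per gene and barcode (Cell Ranger 7.0.1 per the file headers), from a droplet 3′ kit, with 1 library per dose. The submitters' notes name GRCh37, whereas 99.96% of the gene identifiers used match GENCODE 29, so no gene coordinates are given, and promoter positions are those of RefSeq. Cells were selected as stated above; doublets were kept and no caller was run. Counts were pooled per library and scaled to CPM. Total deposited counts were 285806026 at 10 mGy and 244474368 at 100 mGy. Without replicates, the spread between libraries of one dose is not known. Ratios have exact conditional intervals. A self-test on simulated data for 100 mGy over 10 mGy recovered 198 of 200 changed genes among 8057. The simulated ratios held counting error only, so the self-test cannot show how calls would hold between libraries of one dose. The members and the 37 gene lists were chosen with earlier results of these data known, 3 of the lists and the mitotic core after values were seen. Named genes were the 12 highest and 12 lowest ratios at 50 CPM or more, the extreme and most abundant list members, cell type markers and genes named in earlier results; other list members were picked after their values were seen. Python 3.11.15, numpy 2.4.6, scipy 1.17.1 and pandas 2.3.3 were used. Some list members are not reported here.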

Additional observations from a re-analysis of the deposited data

Results flagged for a closer look

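Barcodes under 5000 UMIs were left out of the comparison, and their share was above that of the control. They made up 41.6% of the deposited barcodes at 10 mGy (41.0 to 42.3, exact binomial interval) and 28.5% at 100 mGy (27.8 to 29.1), against 18.5% in the control and 25.7% at 1 Gy. The intervals cover the sampling of barcodes within 1 library only. With every deposited barcode kept, 114 genes were higher and 972 lower at 100 mGy. Their part in the results was not tested further.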

How the results depend on the processing

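Each count was recomputed under the alternatives below, with the rest unchanged. The 111 higher genes became 185 among cells of 10000 to 20000 UMIs, 322 with the median of ratios, 193 without ribosomal protein and MT- genes in the total, 268 with the median of genes of like length subtracted, 270 at a minimum of 1 CPM, 37 at 100 CPM and 6 at 1.5-fold. The 997 lower genes became 557 with the median of ratios, 533 after subtraction by length, 2305 at 1 CPM, 88 at 100 CPM and 73 at 1.5-fold. The 24 genes of lower dispersion became 111 with every barcode, 100 among cells of at least 10000 UMIs, 873 and 1990 among cells of 10000 to 20000 and of 20000 to 40000 UMIs, 2531 after thinning, 92 at 1 CPM, 9 at 100 CPM and 2543 after subtracting counting variance. The cause was not tested. Over 131 named genes and 15 settings (1918 values), 0 values past 1.2-fold changed direction, and 742 moved beyond their counting interval. The classes of 5000 to 10000 and of at least 40000 UMIs are not among these settings, and between them GDF15 went from 0.409 to 3.475 and MT-CYB from 1.206 to 0.914. Leaving out the 5% of cells with the most UMIs, and cells by the mitotic core, were chosen after seeing the data. The planned selection of cells under 2 molecules of the mitosis list left 0 cells in each library and was not run. No paired analysis was possible because each dose has 1 library.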
